A study of Mus musculus with 18 samples.

Results

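The ETS transcription factor genes Etv1, Etv4 and Etv5 were followed along the rostrocaudal axis of embryonic mouse neocortex. These are 3 of the 15063 genes that the platform annotation gives to a probe with a single symbol. All probes carrying one of the 3 symbols were taken, which gave 4 of the 21766 probes that were not Gapdh control spots: 1 for Etv1, 1 for Etv4 and 2 for Etv5. Each of the 4 had a value on all 18 arrays and was tested. All groups were neocortex of mouse embryos of the MF1 stock at E13.5, with no treatment and no allele named for any of them. The tissue was divided into rostral, middle and caudal parts, with 3 pools of each. RNA of 9 pools was hybridised in pairs with Cy3 and Cy5 on 18 arrays, 6 arrays for each pair of regions, so that each pool was read 4 times, 2 times in each dye. Tissue of 4 embryos was used, with no record here of the embryos behind each pool, so p-values measure only how these pools differ, which may be a technical spread.

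Fibroblast growth factors (FGFs) are secreted from the rostral rim of the telencephalon, where Fgf8 and Fgf17 mark a signalling centre, and bind receptor tyrosine kinases on cortical progenitors. The signal runs through Ras and MAP kinases to the nucleus. Etv1 (also Er81), Etv4 (also Pea3) and Etv5 (also Erm) form the Pea3 subfamily of ETS factors, DNA-binding proteins that recognise a GGAA core, and their transcription is a widely used readout of FGF signalling. Etv1 is also known as a later marker of layer 5 projection neurons and of progenitors in the lateral ganglionic eminence.

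The deposited values are log2 ratios, 1 per probe and array, between 18085 and 20693 per array once capped ratios were set aside, and 18525 features could be tested. A 2-colour ratio holds a difference and no level, so neither the abundance of a gene nor the presence of a tissue marker can be read from it. Pool values below are log2 values relative to the mean of the 9 pools, after each array was centred on its median. The labels leave the numerator of the ratio unstated. Ratios were read as Cy5 over Cy3, and the direction is called likely, since Nr2f1 and Emx2, textbook caudal genes, then lay lower in rostral than in caudal pools. The first Nr2f1 probe differed by -1.02 ± 0.07 (log2, SE, n = 3 pools per region, limma adjusted p = 0.0138). Its other probe gave -1.02 ± 0.17 (limma adjusted p = 0.15) and Emx2 -0.25 ± 0.08 (limma adjusted p = 0.427). If the ratio ran the other way, every rostral and caudal statement here would be turned round.

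RefSeq promoter windows (build GRCm38.p6) were available for Etv1 and Etv5, 2 starts each, 2 of the 3 genes. The 250 bases before a start are shown for 1 window of each gene. The ETS core GGAA on either strand is in capitals (TTCC where it lies on the other strand). The windows shown are those that hold the motif AGGAAGT described below, and each has more cores than the other window of its gene. They were read from chr12:38779832-38780081 on the plus strand and chr16:22438369-22438618 on the minus strand.
Etv1 first start: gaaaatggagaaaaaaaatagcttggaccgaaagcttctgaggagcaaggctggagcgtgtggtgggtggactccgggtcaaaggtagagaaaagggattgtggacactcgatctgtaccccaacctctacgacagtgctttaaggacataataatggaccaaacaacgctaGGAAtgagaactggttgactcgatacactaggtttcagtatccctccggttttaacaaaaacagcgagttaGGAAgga
Etv5 second start: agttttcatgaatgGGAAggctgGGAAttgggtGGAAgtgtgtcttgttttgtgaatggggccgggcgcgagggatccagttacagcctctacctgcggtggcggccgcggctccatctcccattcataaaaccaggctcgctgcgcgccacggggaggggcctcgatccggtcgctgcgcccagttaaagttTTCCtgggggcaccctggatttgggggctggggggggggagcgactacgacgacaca
GGAA occurred 2 times before the first Etv1 start and 4 times before the second Etv5 start. It occurred 1 time before the second Etv1 start and 0 times before the first Etv5 start. Such a core was present in 93.4% of all 32851 windows of this length, so its presence is a description only. The longer motif AGGAAGT, searched on both strands over 300 bases that run past the start, was present in 2 of the 4 windows of these genes and in 9.35% of all windows. It overlapped the first Etv1 start (chr12:38780067-38780096) and lay just after the second Etv5 start (chr16:22438349-22438378), as the capitals in these 30 bases show.
Etv1 at the first start: gcgagttaggaAGGAAGTagtttccctcgg
Etv5 at the second start: cgacgacacaaAGGAAGTggtttaaactcc

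Etv1 was higher in rostral than in caudal neocortex. Its pool values were 0.39, 0.43 and 0.56 in the rostral pools, -0.15, -0.12 and -0.11 in the middle pools, and -0.37, -0.42 and -0.21 in the caudal pools. The 3 regions did not overlap: every rostral pool lay above every middle pool and every middle pool above every caudal pool. This order was seen in 0.399% of all features tested, and the opposite order in 0.405%. The mean was 0.46 ± 0.09 in the rostral pools, -0.13 ± 0.02 in the middle pools and -0.33 ± 0.11 in the caudal pools (SD, n = 3 each).

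**Figure D1:**
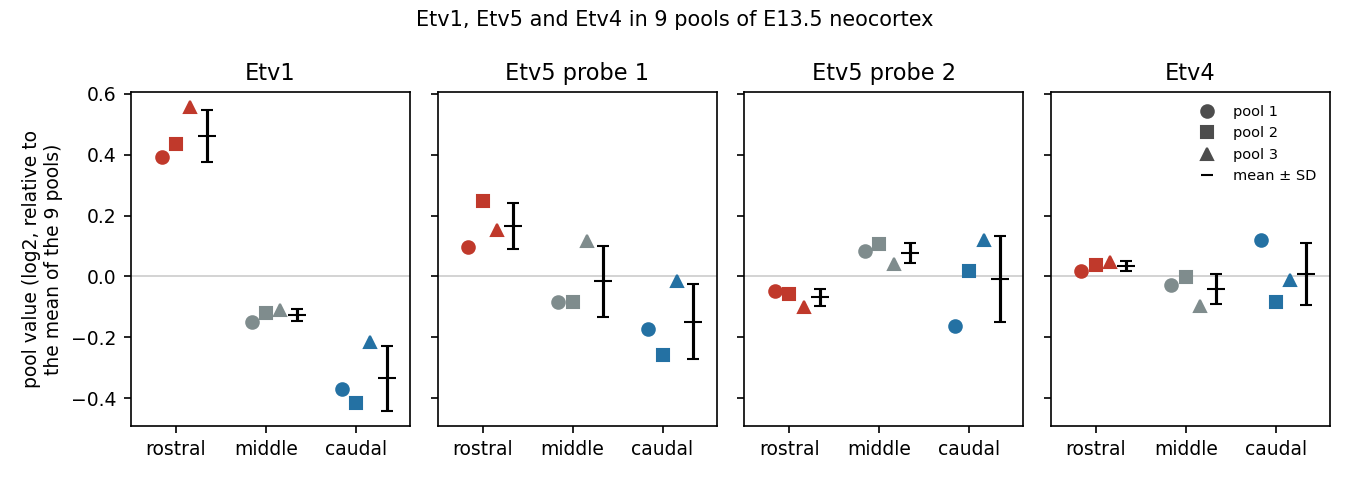
Pool values of the 4 probes (log2, relative to the mean of the 9 pools) in rostral, middle and caudal neocortex; symbols are single pools and black bars the mean ± SD of 3 pools. Etv1 stepped down in order from rostral (0.39 to 0.56) to caudal (-0.42 to -0.21), whereas rostral and caudal pools overlapped for Etv4.

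Between the ends of the axis Etv1 differed 1.74-fold (log2 difference 0.80 ± 0.07, SE, 95% interval 0.63 to 0.96, limma adjusted p = 0.0272). In bulk pools, fewer cells of a type and less RNA per cell cannot be told apart. Etv1 was 1 of 12 features that passed an adjusted p of 0.05 in this comparison, 0.0648% of the 18525 tested, or 0.0486% when only those higher in rostral pools are counted, and it ranked 5th by p and 191st by the size of the positive difference. Between rostral and middle pools the difference was 0.59 ± 0.07 (1.5-fold, 95% interval 0.42 to 0.75, limma adjusted p = 0.28). Between middle and caudal pools it was 0.21 ± 0.07 (1.15-fold, 95% interval 0.04 to 0.37, limma adjusted p = 0.864), and without centring of the arrays it was 0.033 ± 0.11, so the place of the middle above the caudal pools depends on the centring. No feature passed in limma in either of these comparisons (0%). An unadjusted p under 0.05 was reached by 973 features (5.25%) for rostral against middle and by 901 (4.86%) for middle against caudal, and middle pools lay wholly above caudal pools in 6.18%. A contrast added after the data were seen, the middle against the mean of the ends, gave -0.19 ± 0.06 for Etv1 (limma unadjusted p = 0.0169, which did not pass after adjustment), and -0.33 without centring. In that contrast 0 features passed in limma and 4.06% had an unadjusted p under 0.05. The rostral to caudal difference kept its sign and lay between 0.72 and 0.85 in all alternatives tried, but its call was lost whichever of the 9 pools was left out (limma adjusted p between 0.102 and 0.231) and without array 11, 13 or 16 (0.0619, 0.0779 and 0.0697). It was also lost without centring of the arrays (0.208) and with the Gapdh spots added as a covariate (0.0950). A replicate block, which groups the pools by their number, ended the call as well (limma adjusted p = 0.164).

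The single arrays showed the same order. On the 6 arrays that carried a rostral and a caudal pool together, the Etv1 ratio turned to rostral over caudal was between 0.56 and 1.23 with a median of 0.76, above 0 on 6 of 6 arrays. The highest of these values came from rostral replicate 3 against caudal replicate 2. On the 6 arrays of rostral over middle it was between 0.40 and 0.71 with a median of 0.61, again above 0 on 6 of 6. On the 6 arrays of middle over caudal it was between -0.001 and 0.44 with a median of 0.21, above 0 on 5 of 6. The smallest values in this last set belonged to middle replicate 1 against caudal replicate 3 and against caudal replicate 2, both within 0.01 of zero. The mean over the 6 direct arrays of rostral and caudal was 0.80, and the sum of the other 2 sets, which joins the ends through the middle on 12 other arrays, was 0.79. The dye term of this probe was 0.03, small beside these differences.

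**Figure D2:**
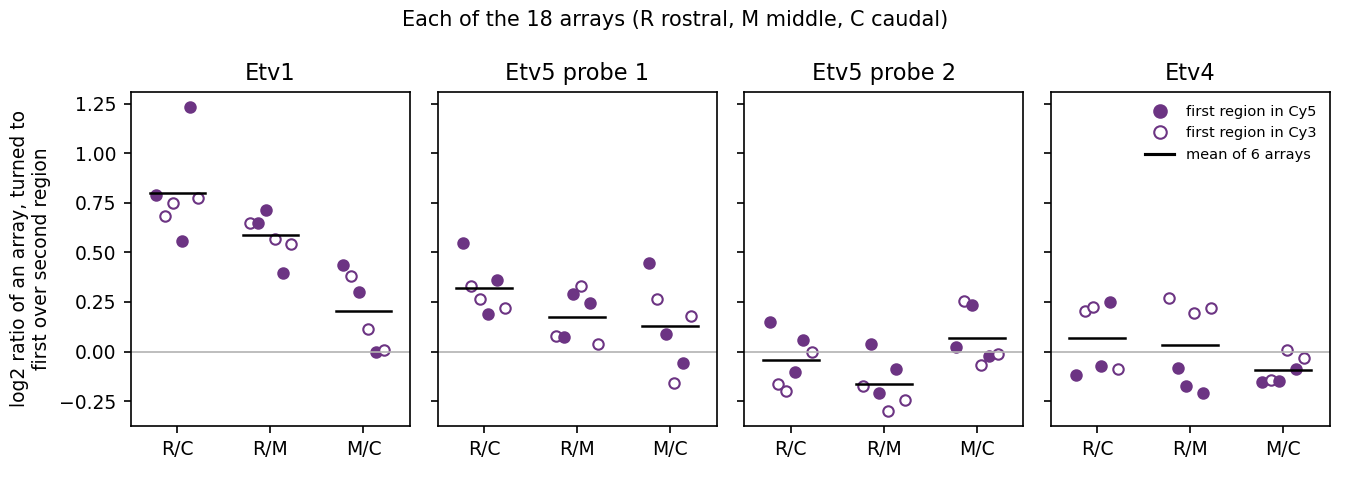
Log2 ratio of each probe on each of the 18 arrays, turned to the first over the second region of the pair; filled circles have the first region in Cy5, open circles in Cy3, and the lines are means of 6 arrays. All 12 arrays with a rostral pool had Etv1 above 0, and the Etv4 values of rostral over middle split by dye.

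Etv5 was read by a pair of probes that gave different patterns. The first probe, CG_Mm_3001489_1, had pool values of 0.10, 0.25 and 0.15 in the rostral pools, -0.08, -0.08 and 0.12 in the middle pools, and -0.17, -0.26 and -0.02 in the caudal pools. Rostral and caudal pools did not overlap, a separation with rostral above caudal that 6.22% of all features showed, and middle replicate 3 lay among the rostral pools. The means were 0.17 ± 0.08 in the rostral pools, -0.02 ± 0.12 in the middle pools and -0.15 ± 0.12 in the caudal pools (SD, n = 3 each). The rostral to caudal difference was 0.31 ± 0.09 (1.24-fold, 95% interval 0.11 to 0.52) and did not pass (limma adjusted p = 0.35). An unadjusted p under 0.05 with a higher rostral value, as this probe had, was seen in 4.17% of all features. On single arrays the ratio of rostral over caudal was between 0.19 and 0.55 with a median of 0.30, above 0 on 6 of 6, and that of rostral over middle between 0.04 and 0.33 with a median of 0.16, above 0 on 6 of 6. The ratio of middle over caudal was mixed, between -0.16 and 0.44 with a median of 0.13, above 0 on 4 of 6 arrays. The fitted steps were 0.18 ± 0.09 for rostral against middle (95% interval -0.03 to 0.39, limma adjusted p = 0.953) and 0.13 ± 0.09 for middle against caudal (95% interval -0.08 to 0.34, limma adjusted p = 0.995).

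The second Etv5 probe, CG_Mm_EXT_3107692_1, had pool values of -0.05, -0.06 and -0.10 in the rostral pools, 0.08, 0.11 and 0.04 in the middle pools, and -0.16, 0.02 and 0.12 in the caudal pools. Here the 3 middle pools lay above the 3 rostral pools, and the caudal pools spanned the whole range of the others. A separation with rostral below middle was seen in 7.66% of all features. The differences were -0.06 ± 0.08 for rostral against caudal (95% interval -0.24 to 0.12, limma adjusted p = 0.938), -0.15 ± 0.08 for rostral against middle (limma adjusted p = 0.964) and 0.09 ± 0.08 for middle against caudal (limma adjusted p = 0.995). Both probes are annotated to the same gene ID, through different transcript records, and the files hold no probe sequences. The disagreement itself was tested: the first minus the second probe was 0.23 ± 0.08 in rostral and -0.14 ± 0.13 in caudal pools (SD, n = 3 each), a difference of 0.37 between the ends (exact permutation test over 1680 labellings of the pools, two-sided, p = 0.0179). That p was 0.0554 without rostral replicate 2 and 0.0821 without caudal replicate 2. Over the 9 pools the pair correlated at r = -0.18, a description over pools that share arrays.

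The second Etv5 probe moved with the Gapdh control spots. Their median over 231 spots was between -0.15 and -0.04 in the rostral pools, between 0.07 and 0.09 in the middle pools and between -0.14 and 0.15 in the caudal pools, and caudal replicate 1 was low both in these spots (-0.14) and in the second Etv5 probe (-0.16). Pearson's r with the Gapdh median over the 9 pools was 0.96 for the second Etv5 probe, -0.22 for the first, -0.51 for Etv1 and -0.71 for Etv4, with a median of -0.03 over all features tested. These are descriptions, since the pools share arrays. With the Gapdh median as a covariate, the second Etv5 probe gave 0.037 between the ends and 0.010 for rostral against middle, with the sign turned in both.

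**Figure D3:**
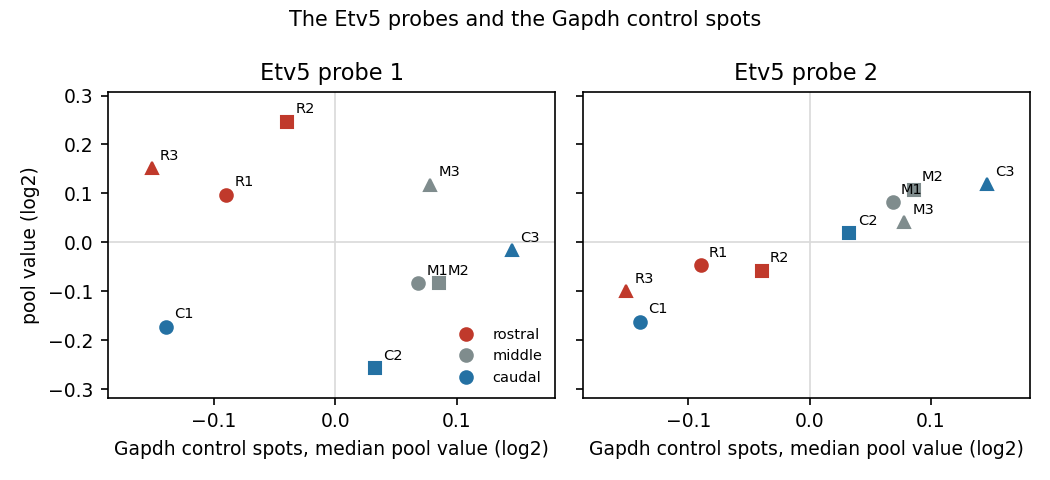
Pool values of both Etv5 probes (log2) against the median pool value of the Gapdh control spots (log2); each symbol is 1 pool, coloured by region. The second probe followed the control spots (r = 0.96 over 9 pools) and the first did not (r = -0.22).

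Etv4 showed no detectable difference between regions. Its pool values were 0.02, 0.04 and 0.05 in the rostral pools, -0.03, -0.0021 and -0.10 in the middle pools, and 0.12, -0.08 and -0.01 in the caudal pools. The rostral pools were close together, and the caudal pools held both the highest and the second lowest value. The mean was 0.03 ± 0.02 in the rostral pools, -0.04 ± 0.05 in the middle pools and 0.01 ± 0.10 in the caudal pools (SD, n = 3 each). The difference was 0.03 ± 0.06 between the ends (95% interval -0.12 to 0.17, limma adjusted p = 0.970), 0.08 ± 0.06 for rostral against middle (95% interval -0.07 to 0.22, limma adjusted p = 0.999) and -0.05 ± 0.06 for middle against caudal (95% interval -0.20 to 0.10, limma adjusted p = 0.995). In folds, the interval between the ends ran from 0.919 to 1.13, so a gradient as steep as that of the Etv1 probe lay outside it. Etv4 was read by 1 probe, whose response to its transcript was not tested. The 3 rostral pools lay above the 3 middle pools, as in 5.17% of all features. On the arrays of rostral over middle the ratio was above 0 on the 3 arrays with rostral RNA in Cy3 and below 0 on the 3 with rostral RNA in Cy5, and the dye term of this probe was -0.09. Each pool was read equally often in both dyes, so by design a fit without a dye term gives the same difference of 0.08. After removal of the dye term 4 of 6 arrays lay above 0. Without centring, rostral minus middle was 0.18 and middle minus caudal -0.22, neither past the threshold. The 6 arrays of rostral over caudal lay between -0.12 and 0.25, 3 of them above 0. The 6 direct arrays gave a mean of 0.07 for the ends and the path through the middle -0.06.

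**Figure D4:**
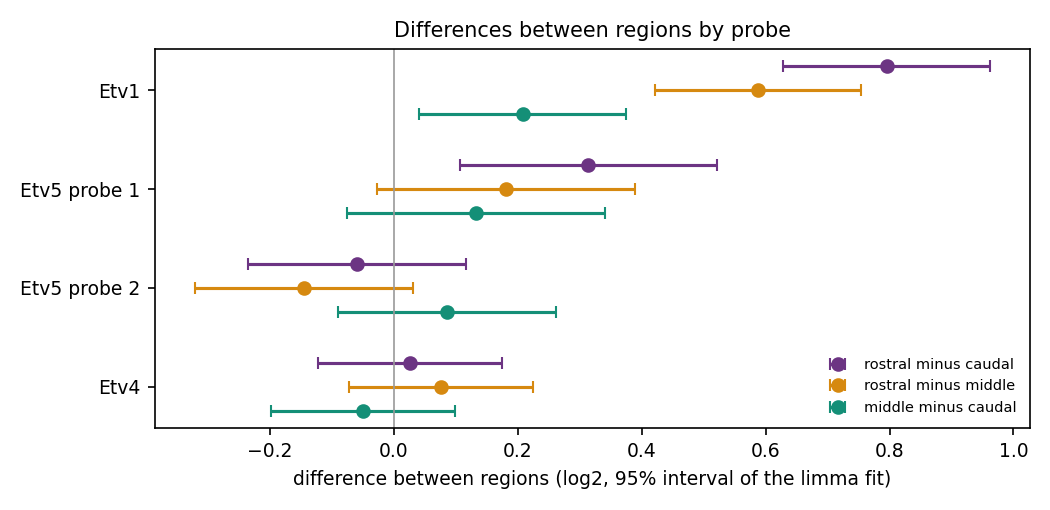
Fitted differences between regions (log2) with 95% intervals for each probe, by comparison. Only the interval of Etv1 lay above 0 in all 3 comparisons; the first Etv5 probe lay above 0 between the ends (0.11 to 0.52), and the intervals of Etv4 and of the second Etv5 probe for the ends held 0.

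The gradients of the genes were then compared within the pools, in 3 pairs with 1 probe standing for each gene (the first of Etv5). Array centring cancels in such a difference. Etv1 minus Etv4 was 0.43 ± 0.07 in rostral and -0.34 ± 0.14 in caudal pools (SD, n = 3 each), so the difference between the ends was larger for Etv1 by 0.77 on the log2 scale (exact permutation test over 1680 labellings, two-sided, p = 0.00119, the smallest it can give, adjusted over the 3 pairs 0.00357). Etv1 minus Etv5 was 0.30 ± 0.11 in rostral and -0.19 ± 0.02 in caudal pools, a difference of 0.48 (exact permutation p = 0.00476, adjusted 0.00714). The first Etv5 probe minus Etv4 was 0.13 ± 0.07 in rostral and -0.16 ± 0.15 in caudal pools, a difference of 0.29 (exact permutation p = 0.0286, adjusted 0.0286). The last call was lost without rostral replicate 1 (adjusted exact p = 0.102), rostral replicate 2 (0.0679), middle replicate 1 (0.0607), middle replicate 2 (0.0607), caudal replicate 1 (0.0732) or caudal replicate 2 (0.0536), and without array 3 (0.0655) or array 16 (0.0536), and both Etv1 calls held whichever pool or array was left out. The permutations take the pools as freely exchangeable, although pools share arrays. The second Etv5 probe, not used in these pairs, had -0.06 ± 0.08 between the ends, below the 0.03 ± 0.06 of Etv4. With that probe the sign of Etv5 minus Etv4 between the ends would turn, and this pair was not tested. Over the 9 pools Etv1 correlated at 0.86 with the first Etv5 probe, 0.30 with Etv4 and -0.36 with the second Etv5 probe, and Etv4 at -0.70 with the second Etv5 probe, again as descriptions.

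The genes whose pool values were most like those of Etv1 were sought among 2160 named features with values on all arrays and an SD over the pools of at least 0.2. As3mt, an arsenite methyltransferase gene, was nearest (r = 0.99 over 9 pools), with region means of 0.55, -0.16 and -0.38 in rostral, middle and caudal pools. It was followed by 4933424G05Rik (r = 0.98), Rnd3 (0.98), Dct, an enzyme of melanin synthesis (0.98), and the noncoding RNA Pantr2 (0.96). Their differences between the ends were 0.93 ± 0.08 for As3mt, 0.51 ± 0.05 for 4933424G05Rik, 0.58 ± 0.07 for Rnd3, 1.15 ± 0.11 for Dct and 0.73 ± 0.07 for Pantr2. The most opposed profiles were those of Laptm4b, a lysosomal membrane protein gene (r = -0.99), the nuclear receptor gene Nr2f1 (-0.97), the splicing factor gene Rbm20 (-0.96), the intermediate filament gene Vim (-0.94) and Wls, whose protein carries WNT ligands to the cell surface (-0.93). Nr2f1 had region means of -0.55, 0.08 and 0.47 in rostral, middle and caudal pools, with the same order of regions turned round. In all, 18 of the 2160 features had r above 0.9 with Etv1 and 7 below -0.9. The counts above 0.9 were 12 for Etv4, which had no detectable regional difference, and 9 for the first Etv5 probe.

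For the first Etv5 probe the nearest profiles were those of Bcl11b, a zinc finger factor of deep-layer neurons (r = 0.94), Zfp827 (0.93), Fgfbp3, an FGF-binding protein gene (0.93), Tnfaip6, which encodes a hyaluronan-binding protein (0.92), and the receptor phosphatase gene Ptprj (0.92). Fgfbp3 differed by 0.68 ± 0.10 between the ends (limma adjusted p = 0.0773), and Bcl11b by 0.46 ± 0.08 with this probe (limma adjusted p = 0.156) and 0.21 ± 0.05 with another (limma adjusted p = 0.283). For Etv4 the nearest profiles were those of Barhl1, Stx3, 2200002J24Rik, Mtnr1a and Plek (r between 0.93 and 0.97), whose differences between the ends had SEs of 0.16 to 0.49. The SD minimum kept features that varied as little as Etv4 out of this search.

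The other genes of the FGF pathway, taken as a fixed list of 48, were set beside the ETS genes. Of these 36 had a probe, 33 could be tested and 0 passed in limma in either direction in any of the 3 comparisons. Between the ends 11 of the 33 lay above 0 and 22 below, with a median of -0.07, against 0.0016 over all features. At an unadjusted p under 0.05, which 7.9% of all features reached (4.17% higher and 3.74% lower in rostral pools), 1 was higher and 4 were lower.

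Among the ligands Fgf8 had -0.08 ± 0.06 and Fgf17 0.02 ± 0.06 between the ends, so neither of the rostral signalling centre genes differed detectably in these pools, and Fgf18 had 0.42 ± 0.27. Fgf15, a ligand of embryonic neural progenitors, had 0.02 ± 0.05. Fgf1 was the only one of 12 tested ligands with an unadjusted p under 0.05 (-0.32 ± 0.07, limma adjusted p = 0.198), and its other probe gave 0.02 ± 0.07. Of 5 receptors, Fgfr1 had 0.06 ± 0.07, Fgfr3 0.03 ± 0.07 and Fgfr2 -0.18 ± 0.05 (limma adjusted p = 0.379). Among 9 relay genes Sos2, an exchange factor for Ras, had -0.90 ± 0.32 (limma adjusted p = 0.506), with caudal replicate 2 at 1.18 beside 0.03 and 0.27 in the other caudal pools.

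Feedback genes are, like the ETS genes, known to be induced by the signal, and were listed together with other modulators of it. Of 7 feedback inhibitors and modulators tested, with 1 probe per gene, 1 lay above 0 and 6 below, with a median of -0.16. Of the 6, only Flrt3 had an unadjusted p under 0.05 in limma, which 3.74% of all features had in that direction. Spred1 had -0.03 ± 0.05 with the probe counted and 0.11 ± 0.78 with another. Spry2, an inhibitor of receptor tyrosine kinase signalling, was the one above 0. Its pool values were 0.28, 0.32 and 0.18 in the rostral pools, -0.08, -0.06 and -0.01 in the middle pools, and -0.17, -0.28 and -0.16 in the caudal pools. The regions had the same order as for Etv1 with no overlap, as in 0.399% of all features tested. Middle minus caudal was 0.16 ± 0.06. Without centring, the median of this comparison over all features moved to -0.17. The place of the middle above the caudal pools may therefore depend on the centring. The difference between the ends was 0.46 ± 0.06 and did not pass (limma adjusted p = 0.0619). Flrt3, a membrane protein that binds FGF receptors, had -0.47 ± 0.10 (limma adjusted p = 0.191). Dusp6, the phosphatase that acts on ERK, had -0.62 ± 0.44 and Spry4 -0.17 ± 0.51, with errors too wide to place them.

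**Figure D5:**
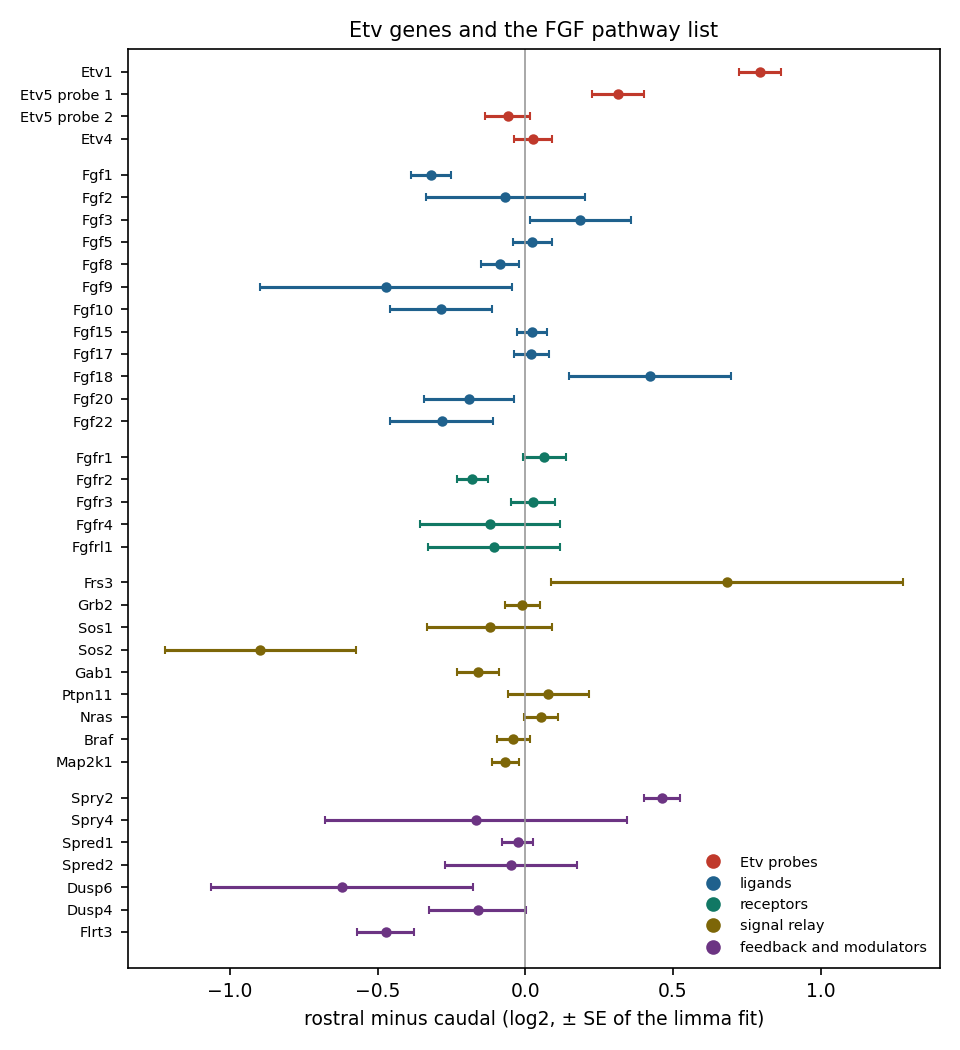
Rostral minus caudal difference (log2, ± SE of the limma fit) for the Etv probes and the 33 tested genes of the FGF pathway list, by role. Etv1 (0.80 ± 0.07) and Spry2 (0.46 ± 0.06) stood on the rostral side with small errors, and Fgf8 and Fgf17 lay near 0.

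Other ETS domain genes were taken from a list of 23, of which 20 were tested and 0 passed in limma in any of the 3 comparisons. Between the ends 16 lay above 0 and 4 below, with a median of 0.04, and the values of the 20 ran from -1.12 to 0.81. The 1 gene with an unadjusted p under 0.05 was Elf5, an epithelial factor (-1.12 ± 0.47, limma adjusted p = 0.624), whose rostral pools were spread between -1.33 and 0.43. This 1 of 20 stands beside 7.9% of all features at an unadjusted p under 0.05 and 0.0648% passing. Elk4, a partner of serum response factor, had 0.12 ± 0.06 with 1 probe and -0.05 ± 0.12 with another, and Etv6, a repressor outside the Pea3 group, 0.04 ± 0.07.

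Markers of tissue that could have been taken along with neocortex were set beside the Etv1 gradient. Of 19 genes of the ventral telencephalon and striatum, where Etv1 is also expressed, 16 were tested, 8 lay above 0 and 8 below between the ends, and the median was -0.0037. Their median per pool was between -0.08 and 0.0047 in rostral and between -0.04 and 0.09 in caudal pools. Dlx2 had 0.02 ± 0.09, Gad2 0.0084 ± 0.06 with 1 probe and 0.41 ± 0.45 with another, and Gsx2, a factor of progenitors in the lateral eminence, -0.53 ± 0.12 (limma adjusted p = 0.225). Early neuron genes had a median of -0.07 between the ends (12 tested, 4 above 0 and 8 below). Radial glia genes had a median of 0.01 (8 tested, 5 above 0 and 3 below). At an unadjusted p under 0.05 in limma, 1 radial glia gene was higher and 1 lower, beside 4.17% and 3.74% of all features. The lower gene, Vim, passed at -0.51 ± 0.05 (limma adjusted p = 0.0389). The higher gene, Slc1a3, stood at 0.32 ± 0.05 without passing (limma adjusted p = 0.156). Further Slc1a3 probes read 0.32 ± 0.29 and 0.22 ± 0.06. Meningeal genes lay below 0 between the ends in 7 of 7 tested (median -0.27, 0 passing in limma and 4 lower at an unadjusted p under 0.05), and red blood cell genes in 4 of 5 (median -0.32, 0 passing and 2 lower at an unadjusted p under 0.05). Over all features 0.0648% passed and 3.74% were lower at an unadjusted p under 0.05. Meningeal medians per pool were between -0.13 and 0.0044 in rostral and between 0.0054 and 0.19 in caudal pools. The part of these tissues in the Etv1 result was not tested. Of 10 neocortical markers 9 gave tested values, with a median of -0.08 between the ends.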

How the data were processed

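The authors deposited 1 log2 ratio per probe and array for 21998 probes on 18 arrays with 2 dyes. The base was read from the values: every array shares a highest value of 16.61, a capped ratio. The scanner, background correction, normalization and ratio direction were not stated in the labels or headers. Capped ratios (1477) were set to missing and arrays, whose medians lay between -0.09 and 0.61, were centred on their median. A feature needed values on at least 12 arrays and 2 arrays of each pool. Gapdh control spots (232) were left out of the tests. Pool values were fitted per feature by least squares, with 1 coefficient per pool and 1 for the dye. These 9 values per feature entered limma 3.58.1 (R 4.3.3, lmFit and eBayes) with 1 mean per region and 6 residual degrees of freedom, followed by Benjamini-Hochberg adjustment across the 18525 features. The limma fit takes the 9 values as independent, although pools share arrays. The procedure was also run on simulated arrays with independent noise of the same spread for all features. Spread differs between the real features, so that run cannot show whether a single call, such as that of Etv1, is sound. Of the probes, 16632 had 1 gene symbol, 139 several and 4995 are unnamed here. Among those with 1 symbol, 15952 probes had a gene ID found in the RefSeq table, and 0 symbols changed.

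The members, lists and likeness rule (the 5 highest and, for Etv1, the 5 lowest r) were chosen with earlier results of these data known. Of the FGF and ETS lists, genes with an unadjusted p under 0.05 between the ends were to be named. Fgf8, Fgf17, Fgf18, Fgf15, Fgfr1, Fgfr3, Dusp6, Spry4, Spred1, Elk4, Etv6 and the marker genes were named after their values were seen. Alternatives changed centring, scale, capped values, filter, dye term, block, covariate and variance model, or left out each pool or array. The number of arrays limits the precision.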

Additional observations from a re-analysis of the deposited data

Results flagged for a closer look

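Of 12 sets of 6 arrays (4 probes, 3 pairs of regions), 1 held an array far from the others by Dixon's test, which chance gives in about 1 in 20 sets. For Etv1, the array of rostral replicate 2 against middle replicate 1 gave 0.36 for rostral over middle after removal of the dye term, while the nearest of the other 5 gave 0.57 and the farthest 0.68. Its gap was 0.66 of the range, above the 95% critical value for 6 values. Without this array, array 10, the difference between rostral and caudal pools was 0.82 ± 0.08 (limma adjusted p = 0.0340).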

How the results depend on the processing

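Leaving the arrays uncentred moved the median over all features to -0.07 between the ends, to 0.10 between rostral and middle pools and to -0.17 between middle and caudal pools. Etv1 then gave 0.72 between the ends, no longer past the threshold, 0.033 between middle and caudal pools, and -0.33 for the middle against the ends. Etv4 gave -0.047 between the ends, and its rostral minus middle value was 0.18. For middle minus caudal, Etv4 gave -0.22, the first Etv5 probe -0.042 and the second -0.089. With the Gapdh spots as a covariate Etv1 gave 0.82, no longer past the threshold, Etv4 -0.023 between the ends and -0.0022 for rostral against middle, and the second Etv5 probe 0.037 and 0.010 in the same comparisons. With the replicate block Etv1 kept 0.80 with a limma adjusted p of 0.164, and 0 features passed. Same-numbered pools deviated from their region means with correlations of -0.43 to -0.06 across features. No array carried same-numbered pools together, while all other pairs of pools from different regions shared an array. These correlations therefore cannot show whether the numbers pair the pools. With 1 pool or array left out, Etv1 ranged from 0.74 to 0.85 between the ends, Etv4 from -0.036 to 0.085, and from -0.080 to 0.0019 for middle against caudal, the second Etv5 probe from -0.14 to 0.00064, the first Etv5 probe minus Etv4 from 0.21 to 0.36, and the first minus the second Etv5 probe from 0.32 to 0.44. A pool left out takes its 4 arrays and residual degrees of freedom with it. The count of features passing between the ends, 12, was 0 without centring or with the covariate, 46 with values on all 18 arrays, 7 without a filter, and 0 to 22 with 1 pool or array left out. For the other losses the cause was not tested.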
